A study of Homo sapiens with 12 samples.

Results

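The LSM and snRNP core proteins are, for the most part, the proteins of the small nuclear ribonucleoproteins (snRNPs) of the spliceosome, and their genes were followed here in HepG2 cells, a human hepatocellular carcinoma line. The rule for membership uses symbols and a count minimum: protein-coding genes whose symbol starts with LSM and a digit, SNRP, SF3A or SF3B, with at least 10 counts in 3 or more libraries. Of 62475 gene identifiers in the count table, 105 carried such a symbol, 34 of these were protein-coding, and all 34 passed the count rule. SNRPN had the fewest counts of the 34, with 1731 over the 12 libraries. All 34 were among the 14435 genes that the low-count filter left for testing.

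RNA sequencing covered 4 groups of cells with 3 biological replicates in each. The groups were HepG2 cells labelled WT_HDAC1 or HDAC1_S434A, each without (-H89) and with (+H89) H89. HDAC1 is a class I histone deacetylase, HDAC1_S434A carries alanine in place of serine in that protein, and H89 is an inhibitor of protein kinase A (PKA) that is known to act on other kinases too. How the mutant cells were made, whether they are 1 clone, and what dose of H89 was used for how long are details not given in the sources used here, and the counts do not show the mutation itself. All groups share the HepG2 background, and the labels name no untreated parental cells apart from WT_HDAC1 without H89. Because each library is RNA from a bulk culture, fewer cells of a type and less RNA per cell cannot be told apart.

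As background, Sm proteins assemble into a ring on the Sm site of the U1, U2, U4 and U5 small nuclear RNAs, with the help of the SMN complex in the cytoplasm. LSM proteins form related rings. The nuclear ring with LSM8 holds the end of the U6 small nuclear RNA, and the cytoplasmic ring with LSM1 binds the ends of deadenylated mRNAs and promotes decapping. The SF3a and SF3b complexes belong to the U2 snRNP and grip the intron branch site, which the U2 small nuclear RNA pairs with. These genes are regarded as housekeeping genes that nearly all dividing cells use, and in each ring or complex the proteins are needed in fixed proportions.

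The libraries held 17562754 to 37187794 counts, and the 3 libraries of WT without H89 were the deepest, at 27763604 to 37187794. Those libraries stood apart in other ways too, and whether they were prepared or sequenced together with the others is not given in the sources used here, so such a difference and the group cannot be told apart. Ribosomal protein genes took 19.4% to 20% of their counts, against 7.37% to 11.5% in the other 9 libraries, and mitochondrially encoded genes took 1.48% to 1.51%, against 3.16% to 7.02%. Trends across genes were read from each gene's log2 level less its mean over the 12 libraries. Spearman's rho of this value with exonic length was -0.43 to -0.42 in WT without H89 and 0.43 to 0.46 in the 6 libraries with H89. By GC content S434A without H89 stood apart on the same measure. Its rho was 0.81, 0.71 and 0.13 in replicates 1, 2 and 3, against negative values in the other 9 libraries. Since each gene is set against its own mean, high values in 1 group push the others down, so these signs are relative between libraries. The biological coefficient of variation of S434A without H89 was 0.351, against 0.0191 to 0.0733 in the other groups. The sum of 8 hepatocyte markers was 66664 to 67424 CPM (gene counts scaled to library size, with TMM as the correction between libraries) in WT without H89 and 23775 to 47910 CPM in the other groups. ALB made up most of that sum in WT without H89, with means of 37069 CPM in WT without and 18686 CPM in WT with H89, while of the 8 markers 2 rose and 4 fell with H89 in WT, the risers being APOB (1475 to 7076 CPM) and HNF4A (152 to 328 CPM), and without H89 S434A cells had 2 of them higher and 5 lower. Fibroblast markers summed to 24.4 to 39.7 CPM in S434A without H89 and 17.7 to 21.03 CPM in the other groups, and blood and endothelial markers to 5.82 to 9.64 CPM against 3.67 to 5.17 CPM. PDGFRB and VWF were higher in S434A without H89 than in WT, by 0.87 (SE 0.15, adjusted p = 0.000478) and 1.47 (SE 0.28, adjusted p = 0.000805) on the log2 scale. The fibroblast list had 2 to 3 of its 5 markers, and the blood and endothelial list 3 of its 5 matched in the table (of 6 listed), at 0 in all libraries of a group, among them COL1A2, DCN, PTPRC, CD3E and HBB in all 12 libraries. The part of these library properties in the results below was not tested beyond a fit without the GC and length trend. That fit is given further on, with the calls that it ends or turns.

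The promoters of 29 of the 34 genes were found in RefSeq (GRCh38.p14), as windows from 250 bases before to 50 bases after the annotated start. Since many of the genes moved together, the 250 bases before the start are printed for 2 genes that were lower with H89 and in S434A (LSM3, SF3B6) and 2 that were higher (SF3A1, SF3B4), 5′ to 3′ on the gene's strand, with capitals marking CCGGAAG, a core motif of ETS factors, on either strand.
LSM3, chr3:14178567-14178816, plus strand: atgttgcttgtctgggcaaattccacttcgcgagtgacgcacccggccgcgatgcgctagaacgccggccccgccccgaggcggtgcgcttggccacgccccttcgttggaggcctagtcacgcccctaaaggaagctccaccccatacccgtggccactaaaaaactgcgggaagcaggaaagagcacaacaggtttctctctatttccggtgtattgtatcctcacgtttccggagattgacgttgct
SF3B6, chr2:24076327-24076576, minus strand: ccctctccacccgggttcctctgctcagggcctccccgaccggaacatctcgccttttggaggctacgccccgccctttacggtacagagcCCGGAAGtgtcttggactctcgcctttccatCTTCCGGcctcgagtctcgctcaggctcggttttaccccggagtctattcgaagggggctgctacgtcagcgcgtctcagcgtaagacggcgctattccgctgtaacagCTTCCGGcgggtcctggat
SF3A1, chr22:30356895-30357144, minus strand: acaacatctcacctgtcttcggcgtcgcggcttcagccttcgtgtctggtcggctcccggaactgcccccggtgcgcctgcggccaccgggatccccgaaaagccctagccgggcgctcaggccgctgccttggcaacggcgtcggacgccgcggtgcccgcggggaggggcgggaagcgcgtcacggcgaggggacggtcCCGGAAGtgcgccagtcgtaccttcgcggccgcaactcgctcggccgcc
SF3B4, chr1:149927804-149928053, minus strand: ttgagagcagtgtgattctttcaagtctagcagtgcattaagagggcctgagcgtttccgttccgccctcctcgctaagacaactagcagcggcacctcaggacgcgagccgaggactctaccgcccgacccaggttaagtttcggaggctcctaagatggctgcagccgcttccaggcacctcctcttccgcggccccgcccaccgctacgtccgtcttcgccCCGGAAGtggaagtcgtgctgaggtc
CCGGAAG lay in 15 of the 29 windows (51.7%), against 12.8% of 22198 windows of protein-coding genes. Genes with the motif were found on both sides, SF3B6 with 3 matches and SF3A1 and SF3B4 with 1 each before the start, while LSM3 had none. The cAMP response element TGACGTCA, which CREB binds downstream of PKA, was in 0 of the 29 windows, against 2.26% of protein-coding windows. The other motifs searched on both strands were AAGATGGCG (YY1; 3 windows, 10.3% against 2.41% of protein-coding windows), GCGCATGC (NRF1; 2 windows, 6.90% against 3.74%), CACGTG (E-box; 1 window, 3.45% against 8.34%) and CCAAT (10 windows, 34.5% against 34.7%). The letters TATAAA were in 1 window, that of SNRPC (3.45% against 9.47%). Motifs of the list can overlap at their ends, as CCGGAAG and AAGATGGCG can in AAG, and the windows of SF3A1 and SF3B2 held both of these. A match says only that these letters are present.

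Levels were first compared between genes as CPM per kilobase of exonic length, in WT without H89 (mean ± SD, n = 3). The highest was SF3B5, a small SF3b subunit, at 573 ± 12.7 CPM per kb. SNRPB, which encodes the Sm proteins B and B′, followed at 401 ± 2.29 CPM per kb, and SF3B6, an SF3b subunit found near the branch site adenosine, at 329 ± 12.7 CPM per kb. These 3 genes were separated by far more than the SD of replicates, which does not measure how well levels compare between genes. The order was not the same with H89. In WT with H89, SNRPB was first at 159 CPM per kb, SF3B5 stood at 157 CPM per kb and SF3B6 ranked 5. In WT without H89, SNRPD2 (286 ± 10.6 CPM per kb) and SNRPG (247 ± 9.50 CPM per kb), both Sm ring proteins, came next. SNRPN, a paralogue of SNRPB known for imprinted expression, was the lowest at 2.73 ± 0.0787 CPM per kb, and SNRPB was 53.1 to 56.1 times SNRPN in CPM in the 3 libraries. The coding sequences of SNRPB and SNRPN are alike, so reads may have been split between them. LSM8 ranked 32 of 34 at 4.20 ± 0.175 CPM per kb, with an annotated exonic length of 17309 bases against a coding length of 288 bases. Exons shared with other genes limit SNRPN (43.9% of its exonic bases, with SNURF and other genes), LSM1 (37.9%, with BAG4 and another gene), SNRPB (20%) and SNRPD3 (14%), and the share was under 4% in the other 30 genes. Annotated processed copies held at most 1.14% of the parent gene's counts, the highest share being that of SNRPG. Reads that match both a parent and a copy may have gone uncounted in both. This share therefore does not show that the parent's counts are unaffected.

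The question of the first comparison was what H89 changed in HepG2 cells with wild-type HDAC1. Most genes of the snRNP core were lower with H89. At an adjusted p under 0.05 at any fold, 24 of the 34 genes fell (all genes tested: 30.9%) and 8 rose (38.8%). At the study's own threshold, a fold over 2 as well, 18 fell (15.8%) and 3 rose (22.2%). The median log2 fold change was -1.05 for the 34 genes and 0.20 for all genes tested. With RLE size factors the all-gene median moved to 0.05 and the median of the 34 to -1.20. The libraries with and without H89 did not overlap for any of the 34 genes, 10 of them higher (47.6% of all genes) and 24 lower (35.5%). With edgeR's quasi-likelihood test, SF3B1 and LSM11 did not pass.

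In the Sm ring, all 8 genes fell, 7 of them by more than 2-fold. SNRPG, the gene of the smallest Sm protein by coding length, stood at 448, 444 and 417 CPM without H89 and 69.7, 66.5 and 70.5 CPM with it. Every library with H89 was far below every library without it, and the log2 fold change was -2.66 (SE 0.13, adjusted p = 2.47e-08). SNRPE, its neighbour in the ring, went from 244, 251 and 239.7 CPM to 46.5, 43.3 and 52.2 CPM, with no overlap, a change of -2.37 (SE 0.19, adjusted p = 1.15e-06). SNRPB and SNRPD2, the genes of the ring with the highest level per kb in wild type without H89, changed by less. SNRPB was at 516, 511 and 511 CPM and then 208, 197 and 202 CPM, a change of -1.34 (SE 0.06, adjusted p = 1.15e-08). SNRPD2 changed by -1.69, SNRPD1 by -1.40, SNRPF by -1.29 and SNRPN by -1.09. SNRPD3 alone of the ring stayed under 2-fold, at 37.3, 39.7 and 41.5 CPM without and 30.1, 30.3 and 32 CPM with H89. The change of SNRPD3 was -0.36 (SE 0.07, adjusted p = 0.00123).

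In the LSM rings, all 8 genes fell as well, and 7 did so by more than 2-fold. LSM3, a subunit of both the nuclear and the cytoplasmic ring, showed the largest change of the 34 genes. Its level was 219, 213 and 209.7 CPM without H89 and 26.3, 24.4 and 27.9 CPM with it, and its log2 fold change was -3.03 (SE 0.15, adjusted p = 2.15e-08). LSM3 lies at chr3:14220317-14242622 (plus strand) of hg19 and has identifier ENSG00000170860.4_5 in the count table. LSM5, also shared by both rings, went from 150.2, 144 and 146 CPM to 28.4, 27.2 and 31.8 CPM (log2 -2.33, SE 0.16, adjusted p = 3.31e-07). The nuclear subunit LSM8 was at 75.7, 72.7 and 69.7 CPM and then 20.3, 21.6 and 25.6 CPM (log2 -1.69, SE 0.21, adjusted p = 3.75e-05). The groups did not overlap for either. The cytoplasmic subunit LSM1 was at 25.3, 25.9 and 24.5 CPM and then 11.2, 10.4 and 12.3 CPM (log2 -1.16, SE 0.15, adjusted p = 4.66e-05). LSM6 changed by -1.73, LSM4 by -1.46 and LSM7 by -1.41. LSM2 changed least, from 41.3, 39.8 and 40.02 CPM to 30.04, 28.96 and 27.6 CPM (log2 -0.48, SE 0.10, adjusted p = 0.00108).

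The branch site complexes split by subunit. SF3A1, the SURP-domain subunit of SF3a, rose from 28.5, 29.7 and 30.2 CPM to 88.01, 76.4 and 73 CPM, with log2 fold change 1.42 (SE 0.15, adjusted p = 9.84e-06). SF3A2, a zinc-finger subunit of SF3a, rose from 20.5, 18.9 and 19.2 CPM to 54.6, 49.1 and 43.5 CPM (log2 1.33, SE 0.18, adjusted p = 5.60e-05). All libraries with H89 were above all libraries without it for both genes. SF3A3, the remaining subunit, was at 104, 99.8 and 101 CPM and then 84.6, 84.4 and 88.3 CPM, a small change of -0.24 (SE 0.06, adjusted p = 0.00436). In SF3b, SF3B4, an RNA-recognition subunit that contacts the intron upstream of the branch site, rose from 18.7, 20.1 and 18.03 CPM to 38.1, 43.6 and 38.1 CPM (log2 1.08, SE 0.17, adjusted p = 0.00021). SF3B3, the large WD40 scaffold, rose by 0.69 (SE 0.14, adjusted p = 0.00107), and SF3B2, the partner of SF3B4, by 0.36 (SE 0.09, adjusted p = 0.00536). The smallest subunits went the other way. SF3B5 fell from 393, 405 and 388 CPM to 104, 109 and 113 CPM (log2 -1.87, SE 0.08, adjusted p = 6.98e-09), and SF3B6 fell from 386, 359 and 364 CPM to 80.7, 68.9 and 86.2 CPM (log2 -2.23, SE 0.21, adjusted p = 5.06e-06). Subunits of 1 complex moved in opposite directions, with no overlap between libraries for any of these genes.

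SF3B1, the HEAT-repeat subunit that clamps the branch helix and the target of splicing-modulating drugs, was at 184, 178 and 183 CPM without H89 and 389.7, 375 and 459 CPM with it in wild-type cells. Those groups did not overlap, yet the log2 fold change of 1.16 (SE 0.58, adjusted p = 0.0944) did not pass in the fit of all 12 libraries. The spread in that fit is shared with S434A without H89, where SF3B1 varied from 18.5 to 212 CPM. With only the 2 groups compared, the change was 1.02 (adjusted p = 1.61e-10), and with limma-voom and a quality weight per group it was 1.16 (adjusted p = 7.52e-05). Over all alternatives to the main fit, the adjusted p for SF3B1 in this comparison ran from 1.61e-10 to 0.637.

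**Figure D1:**
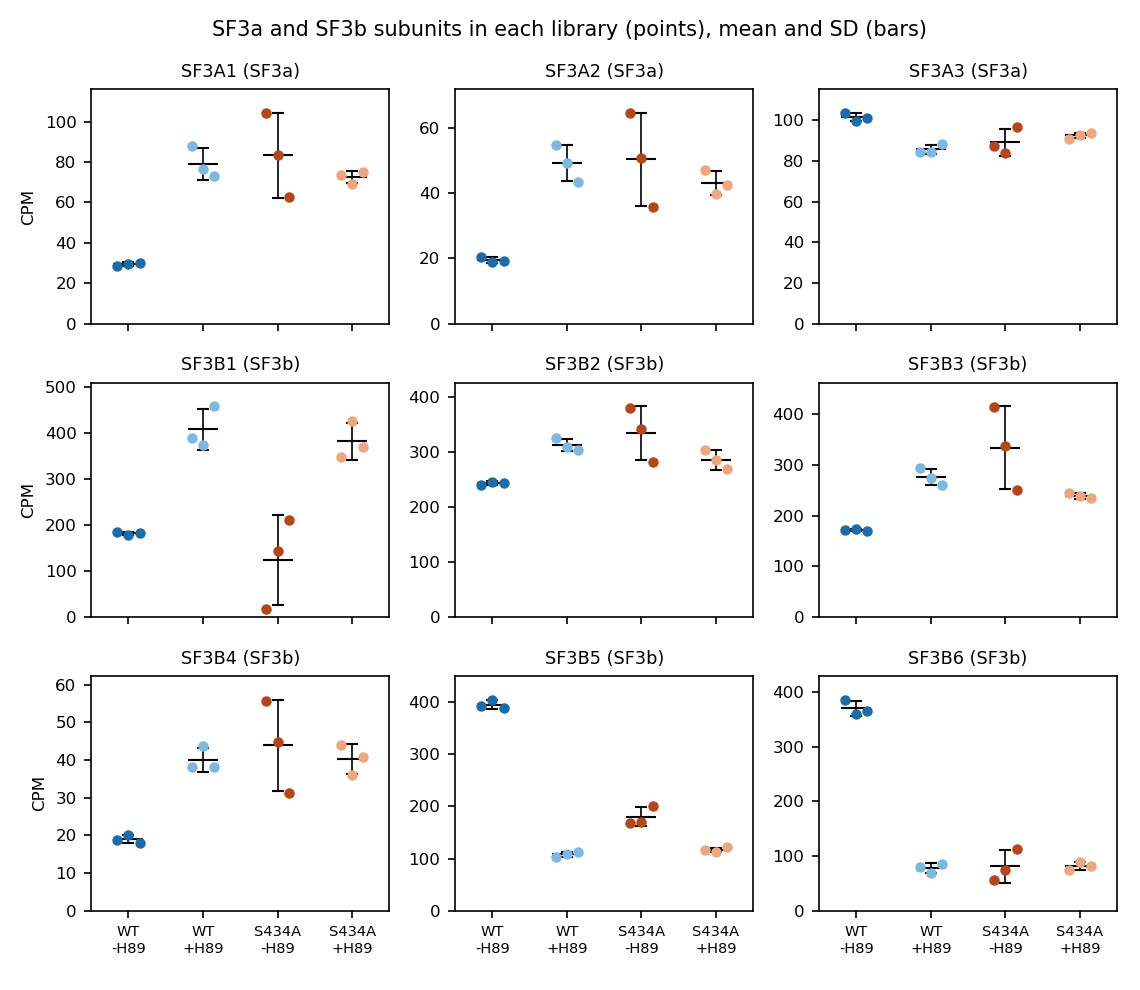
Level of each SF3a and SF3b subunit in CPM (vertical axis, from 0) in the 4 groups (horizontal axis); points are the 3 libraries of a group in replicate order, and bars are the mean and SD. SF3A1, SF3A2 and SF3B4 are lowest in WT without H89, SF3B5 and SF3B6 are highest there, and SF3B1 has 1 library of S434A without H89 at 18.5 CPM.

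The snRNP-specific proteins also divided. SNRPA, which binds a stem-loop of U1 RNA, rose from 45.8, 45.1 and 45.1 CPM to 79.8, 74.2 and 68.3 CPM (log2 0.71, SE 0.14, adjusted p = 0.001). SNRPC, which helps U1 hold the 5′ splice site, fell from 225, 227 and 222 CPM to 112, 106 and 116 CPM (log2 -1.01, SE 0.05, adjusted p = 3.67e-08). The partners of U2 RNA both fell: SNRPB2 from 178, 176 and 172 CPM to 62.4, 61.2 and 70.5 CPM (log2 -1.44, SE 0.19, adjusted p = 4.47e-05), and SNRPA1 by less, at -0.49 (SE 0.11, adjusted p = 0.00217). Outside the spliceosome, LSM10, an Sm-like protein of the U7 snRNP that trims histone mRNAs, fell from 47.1, 47.5 and 46.8 CPM to 25.3, 25.2 and 26.8 CPM (log2 -0.87, SE 0.07, adjusted p = 7.60e-07). Its partner LSM11 was at 21.7, 20.5 and 20.8 CPM and then 22.6, 21.9 and 22.9 CPM, a difference of 0.10 (SE 0.08, adjusted p = 0.296) whose sign turned with RLE or upper-quartile factors. LSM14A and LSM14B, P-body proteins linked to repression of translation, rose: LSM14A by 0.77 (SE 0.14, adjusted p = 0.000425) and LSM14B by 0.54 (SE 0.08, adjusted p = 0.000133). LSM12 was lower, at -0.43 (SE 0.08, adjusted p = 0.000773).

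**Figure D2:**
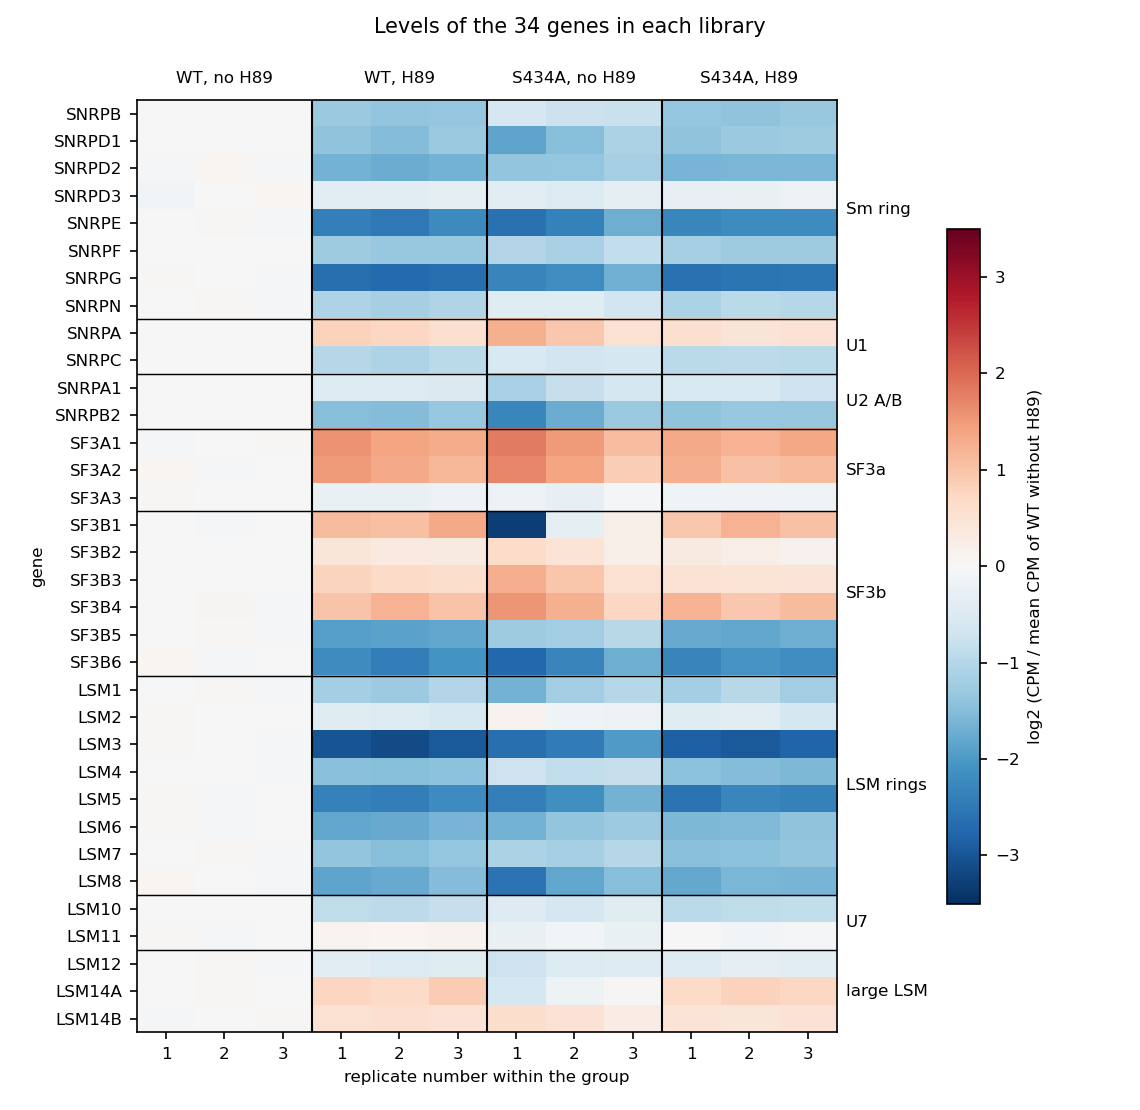
Colour shows log2 of each library's CPM over the mean CPM of WT without H89, for the 34 genes (rows, by role) in the 12 libraries (columns, by group and replicate number). LSM3, SNRPG, SNRPE, LSM5 and SF3B6 are blue in all 9 libraries outside WT without H89, and SF3A1, SF3A2 and SF3B4 are red in all 9.

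The second comparison asked how HDAC1_S434A cells differed from wild-type cells without H89. It shares the WT libraries without H89 with the comparison above, so like values in both are not separate evidence. The snRNP core was mostly lower in S434A: 23 of the 34 genes were lower (29.3% of all genes tested) and 7 were higher (29.0%) at an adjusted p under 0.05. With a fold over 2 as well, 13 were lower (11.3%) and 3 were higher (11.6%). The median log2 fold change was -0.65 for the 34 genes and -0.04 for all genes tested. The libraries of the groups did not overlap for 31 of the 34 genes, 24 of them lower (33.7%) and 7 higher (29.0%). Without replicate 1 of S434A without H89, the library farthest from the others by GC content, the counts were 23 lower (30.2% of all genes) and 7 higher (32.2%) at any fold. Without replicate 3, the genes higher by over 2-fold were 5 rather than 3, against 14.2% of all genes. In a fit of only these 2 groups, the all-gene split moved from 4186 higher and 4232 lower to 4493 higher and 2478 lower, and the genes of the 34 that were higher by over 2-fold were again 5, against 17.3% of 13893 genes tested in that fit.

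All 8 genes of the Sm ring were lower in S434A, 4 of them by more than 2-fold. SNRPE stood at 39.9, 47.5 and 75.1 CPM in S434A, against 244, 251 and 239.7 CPM in wild type, the log2 fold change being -2.18 (SE 0.19, adjusted p = 4.72e-06). SNRPG stood at 88.7, 97.5 and 135 CPM (log2 -2.03, SE 0.13, adjusted p = 6.23e-07). In both genes replicate 3 was the highest of the S434A libraries and still well under the wild-type level. SNRPD1 changed by -1.45, SNRPD2 by -1.29, SNRPF by -0.998, SNRPB by -0.71, SNRPN by -0.51 and SNRPD3 by -0.40. Of the LSM rings, 7 of 8 genes were lower and 6 of them by more than 2-fold. LSM3 stood at 34.2, 39 and 54.4 CPM (log2 -2.33, SE 0.14, adjusted p = 5.61e-07), the largest difference of the 34 genes. LSM8 stood at 12.1, 20.7 and 25.9 CPM (log2 -1.89, SE 0.22, adjusted p = 2.88e-05), and LSM5 at 28.1, 32.9 and 46.7 CPM (log2 -2.03, SE 0.16, adjusted p = 2.34e-06). LSM2 stood at 44.2, 36.2 and 35.3 CPM, which overlapped the wild-type range, with a difference of -0.07 (SE 0.10, adjusted p = 0.594).

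The subunits of the U2 snRNP again divided. SF3A1 stood at 104, 83.4 and 62.5 CPM in S434A (log2 1.4999, SE 0.15, adjusted p = 1.27e-05), SF3A2 at 64.4, 50.7 and 35.7 CPM (log2 1.36, SE 0.18, adjusted p = 6.82e-05) and SF3B4 at 55.6, 44.7 and 31.4 CPM (log2 1.21, SE 0.17, adjusted p = 0.000123). All were above all wild-type libraries, with replicate 1 the highest and replicate 3 the lowest of the S434A libraries. SF3B3 was higher by 0.96 (SE 0.14, adjusted p = 0.000134), and SF3B2 by 0.46 (SE 0.09, adjusted p = 0.00153). SF3B6 stood at 55.4, 74.7 and 114 CPM (log2 -2.19, SE 0.21, adjusted p = 1.15e-05) and SF3B5 at 168, 171 and 201 CPM (log2 -1.14, SE 0.07, adjusted p = 6.67e-07). Both were below all wild-type libraries. SF3A3 was slightly lower, -0.19 (SE 0.06, adjusted p = 0.0221). SNRPB2 stood at 36.4, 52.8 and 71.98 CPM (log2 -1.71, SE 0.19, adjusted p = 2.26e-05), and SNRPA1 was lower, at -0.84 (SE 0.11, adjusted p = 7.27e-05). SNRPA was higher, 0.93 (SE 0.14, adjusted p = 0.000194), and SNRPC was lower, -0.60 (SE 0.05, adjusted p = 4.51e-06).

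SF3B1 was the gene of the 34 with the widest spread in S434A without H89, at 18.5, 144 and 212 CPM (344, 2603 and 4075 counts). Replicate 1 was far below every other library of the series, and replicates 2 and 3 lay on both sides of the wild-type values of 184, 178 and 183 CPM. The log2 fold change was -0.54 (SE 0.57, adjusted p = 0.443), and without replicate 1 it was -0.03 (adjusted p = 0.842). The transcript has a GC content of 41.04% and its locus is chr2:198253239-198299803 (minus strand) of hg19. In the same library the rho across genes between GC content and level, less each gene's mean over all libraries, was 0.81. The part of that trend in the SF3B1 value was not tested apart from the fit given below. Among the remaining genes, LSM10 was lower (log2 -0.49, SE 0.07, adjusted p = 9.63e-05), as was LSM12 (log2 -0.54, SE 0.08, adjusted p = 0.000212), and LSM14B was higher (log2 0.47, SE 0.08, adjusted p = 0.000485). LSM11 and LSM14A did not pass, with -0.20 (SE 0.08, adjusted p = 0.0559) and -0.23 (SE 0.14, adjusted p = 0.173).

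**Figure D3:**
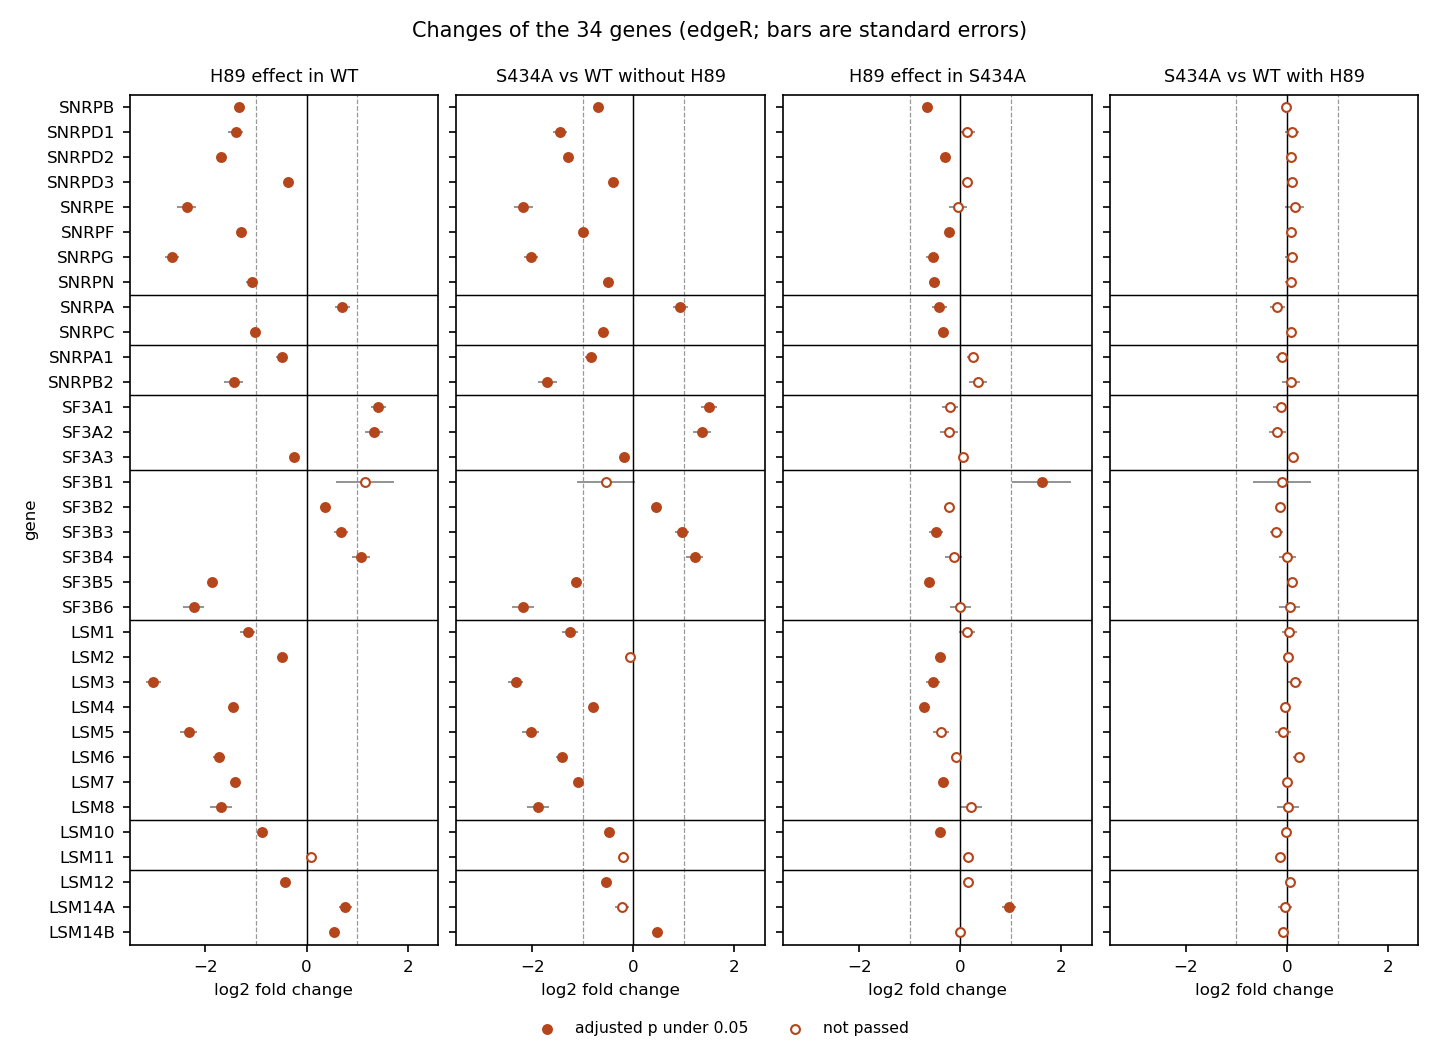
Log2 fold change of each of the 34 genes (horizontal axis) in 4 comparisons (panels), with genes grouped by role as in the map of levels; points are edgeR estimates, bars are standard errors, filled points have an adjusted p under 0.05, and dashed lines mark a 2-fold change. Filled points spread from -3.03 to 1.42 for H89 in WT, and no point of S434A vs WT with H89 is filled.

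The third comparison was H89 in HDAC1_S434A cells. In these cells 14 of the 34 genes fell (22.7% of all genes tested) and 2 rose (29.3%) at any fold. With a fold over 2 as well, 1 rose (15.2%) and 0 fell (2.35%), with edgeR. At an unadjusted p under 0.05 there were 19 of the 34 genes and 8470 of all genes (58.7%), and the lowest log2 fold change of the 34 was -0.71. DESeq2 and limma-voom likewise called 0 falls of over 2-fold, against 3.23% and 2.3% of all genes. The median log2 fold change was -0.21, against 0.01 for all genes tested. With RLE factors, the all-gene split of this comparison moved from 4224 higher and 3280 lower to 3566 higher and 4273 lower, and the all-gene median to -0.08. Upper-quartile factors gave 3568 higher and 4393 lower. The libraries with and without H89 did not overlap for 17 of the 34 genes, 13 lower (23.2%) and 4 higher (33.1%).

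Of the 14 genes that fell, 9 belong to the Sm and LSM rings. LSM4 went from 170.3, 154 and 162 CPM to 104, 98.8 and 94.2 CPM (log2 -0.71, SE 0.06, adjusted p = 2.00e-05), SNRPB from 339.7, 304 and 298 CPM to 202, 193 and 205 CPM (log2 -0.65, SE 0.06, adjusted p = 3.18e-05), and SF3B5 from 168, 171 and 201 CPM to 116, 113 and 122 CPM (log2 -0.62, SE 0.07, adjusted p = 0.000131). In these genes S434A without H89 lay between wild type without H89 and the libraries with H89. SNRPG changed by -0.54 (SE 0.13, adjusted p = 0.00566), LSM3 by -0.54 (SE 0.14, adjusted p = 0.00919) and SF3B3 by -0.48 (SE 0.14, adjusted p = 0.0146). For SNRPE, LSM8 and SF3B6, whose wild-type falls exceeded 1.5 on the log2 scale, the differences in S434A were -0.05, 0.22 and 0.00 and did not pass. LSM14A rose from 56.5, 76.5 and 90.1 CPM to 138, 154 and 143 CPM (log2 0.97, SE 0.14, adjusted p = 0.000405), but stood at -0.19 with the GC and length trend removed (adjusted p = 0.442). SF3B1 rose from 18.5, 144 and 212 CPM to 349, 427 and 370.3 CPM (log2 1.61, SE 0.59, adjusted p = 0.0398). Without replicate 1 of S434A without H89 the change of SF3B1 was 1.10 (adjusted p = 2.32e-05). It did not pass without replicate 2 of S434A without H89 or without any 1 of the libraries of S434A with H89 (adjusted p up to 0.113). Over all alternatives the adjusted p ran from 2.32e-05 to 0.163. Leaving out replicate 3 of S434A without H89 raised the number of risen genes at any fold from 2 to 9, and that of all genes from 4224 of 14435 to 4976 of 14693 (33.9%).

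With H89 in both, S434A and wild-type cells were compared last. No member of the snRNP core and no gene at all passed (0% of 14435), by edgeR with adjustment by Benjamini-Hochberg. At an unadjusted p under 0.05 there were 0 of the 34 genes and 589 of all genes (4.08%). DESeq2 and limma-voom passed 0 of the 34 genes too, and DESeq2 passed 2 genes in all. The log2 differences of the 34 genes lay between -0.21 and 0.23, with standard errors of up to 0.57, the widest being that of SF3B1. LSM3, for example, stood at 26.3, 24.4 and 27.9 CPM in wild type and 29.5, 27.7 and 30.4 CPM in S434A, a difference of 0.16 (SE 0.14, adjusted p = 0.9998). SF3A1 stood at 88.01, 76.4 and 73 CPM and 73.6, 69.1 and 74.9 CPM (log2 -0.13, SE 0.15, adjusted p = 0.9998). The ranges of the groups overlapped in both genes. They did not overlap for 12 of the 34 genes, 7 higher in S434A (8.80%) and 5 lower (8.46%). These p-values do not show that the genotypes are alike with H89.

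The H89 effects of the genotypes were then set against each other in 1 interaction test, in which a positive value means a less negative or more positive effect in S434A. At any fold, 23 of the 34 genes were positive (24.0% of all genes tested) and 7 negative (24.0%), and at over 2-fold 14 were positive (11.7%) and 5 negative (12.4%). The median was 0.68, against 0.07 for all genes. LSM3 differed by 2.49 (SE 0.20, adjusted p = 8.62e-06), SNRPE by 2.33 (SE 0.26, adjusted p = 5.84e-05), SF3B6 by 2.24 (SE 0.29, adjusted p = 0.000162) and SNRPG by 2.12 (SE 0.18, adjusted p = 1.03e-05). SF3A1 differed by -1.63 (SE 0.21, adjusted p = 0.000139) and SF3A2 by -1.55 (SE 0.25, adjusted p = 0.000478). In each of these genes the 2 groups with H89 were near each other, and the groups without H89 were apart. The libraries without H89 are those of the second comparison, so like sizes in both are not separate evidence. Without replicate 1 of S434A without H89, the negative genes at over 2-fold were 2 rather than 5, against 11.5% of all genes tested in that fit. SF3B1, LSM2, LSM11 and LSM14A did not pass, with values of 0.45, 0.08, 0.05 and 0.19. With the GC and length trend removed, LSM2 and LSM14A passed as negative, at -0.37 (adjusted p = 0.0117) and -0.71 (adjusted p = 0.045).

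The coding length of the genes, a property that the choice of genes did not use, ordered the changes. The coding length was taken from the principal transcript in GENCODE, and it ran from 228 bases in SNRPG to 3912 bases in SF3B1, with a median of 447 bases against 1392 for 12128 tested genes. For H89 in wild type, Spearman's rho between coding length and log2 fold change was 0.84 over the 34 genes and 0.62 over the 12128 genes. For S434A against wild type without H89 it was 0.74 and 0.48. It was 0.27 and 0.30 for H89 in S434A, and -0.64 and -0.16 for S434A against wild type with H89, where the differences themselves were small. These rhos are across genes that share the same libraries. Under 600 coding bases, a boundary chosen after the values were seen, all 19 genes fell with H89 in wild type, with a median of -1.46, while 69.6% of 1558 tested genes of that length fell, with a median of -0.88. At or over 600 bases, 8 of 15 genes rose and 5 fell, against 46.3% and 23.9% of 10570 tested genes. In S434A without H89, 18 of the 19 short genes were lower than in wild type, against 66.8% of the 1558. Most tested genes of that length were lower too, and the median of the 34-gene set's short genes lay further down than that of the class. Whether coding length has a part in the changes was not tested.

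**Figure D4:**
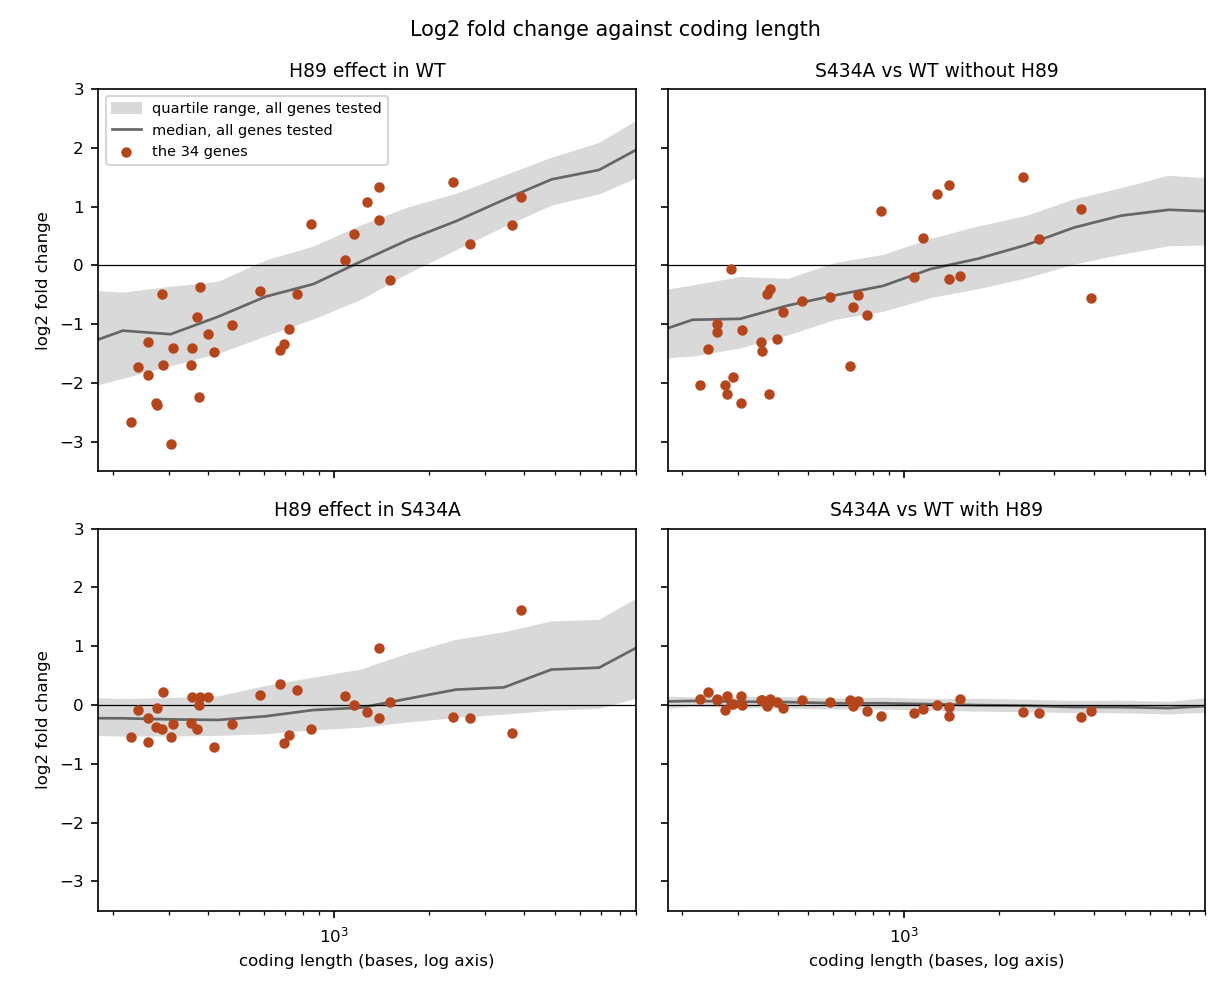
Log2 fold change (vertical axis) against coding length in bases (log axis) in 4 comparisons (panels); points are the 34 genes, the line is the median of all genes tested in bins of coding length, and the band is their quartile range. The points rise with length for H89 in WT (rho 0.84) and for S434A vs WT without H89 (rho 0.74), as does the line, and in these panels most of the shortest genes lie below the line.

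An offset then took out each library's smooth dependence of level, less the gene's mean over all libraries, on GC content and exonic length. With this offset, more of the 34 genes were lower than higher in all 3 of the comparisons that had any change. For H89 in wild type, 21 of the 34 genes fell (34.8% of all genes tested) and 7 rose (38.3%), and at over 2-fold 12 fell (14.7%) and 4 rose (13.6%), with a median of -0.45 against 0.06 for all genes. For S434A against wild type without H89, 19 were lower (28.7%) and 8 were higher (29.6%), and at over 2-fold 6 were lower (6.11%) and 2 higher (5.09%), with a median of -0.37 against 0.05. LSM3 changed by -2.73 with H89 (adjusted p = 8.13e-10) and by -2.03 in S434A (adjusted p = 3.97e-08). SF3B4 rose by 1.79 and SF3A1 by 1.20 with H89. SNRPG changed by -1.88 and SF3B6 by -1.31. The sign turned in LSM2, which rose by 0.39 with H89 (adjusted p = 0.000427), and in SF3B2 and SF3B3, which stood at -0.34 and -0.11 and did not pass. It turned in LSM11 too, from 0.10 to -0.28 (adjusted p = 0.0462), which then passed as lower. LSM12, SF3A3 and SNRPD3 no longer passed, at -0.12, -0.0079 and -0.15 (adjusted p = 0.0913, 0.909 and 0.103). In S434A without H89, LSM12, SF3A3, SF3B2, SNRPA1 and SNRPF no longer passed (adjusted p = 0.334, 0.661, 0.153, 0.918 and 0.503), and LSM2 and LSM14A passed as higher, at 0.32 and 0.61 (adjusted p = 0.00218 and 0.0162). SF3B1 was at 0.19 with H89 in wild type and 0.67 with H89 in S434A, and passed in neither. For S434A against wild type without H89, SF3B1 was at -0.62 (SE 0.34, adjusted p = 0.146) with the offset. For H89 in S434A, LSM2, LSM7, LSM10, SNRPA, SNRPC and SNRPD2 no longer passed as lower (adjusted p from 0.191 to 0.928). The genes that newly passed as lower were LSM5, LSM6, LSM8, LSM11, SF3B2, SNRPA1, SNRPB2 and SNRPD1, and as higher LSM1, LSM14B and SNRPD3. Among these, the sign turned in LSM8 (0.22 to -1.31), LSM11 (0.15 to -0.41) and SNRPA1 (0.25 to -0.64). It turned in SNRPB2 (0.35 to -0.42), SNRPD1 (0.14 to -0.81) and LSM14B (-0.00056 to 0.29) as well. In all, 16 fell (23.2%) and 3 rose (20.8%), and at over 2-fold 0 rose (2.65%) and 3 fell (3.70%), namely LSM5, LSM8 and SNRPF. LSM8 is the gene with 17309 annotated exonic bases, and the offset depends on that length. For the difference of H89 effects, 17 were positive (23.6%) and 8 negative (24.1%), and at over 2-fold 5 were positive (6.96%) and 4 negative (5.85%). The offset takes out any change that runs with length or GC content, whatever its source.

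**Figure D5:**
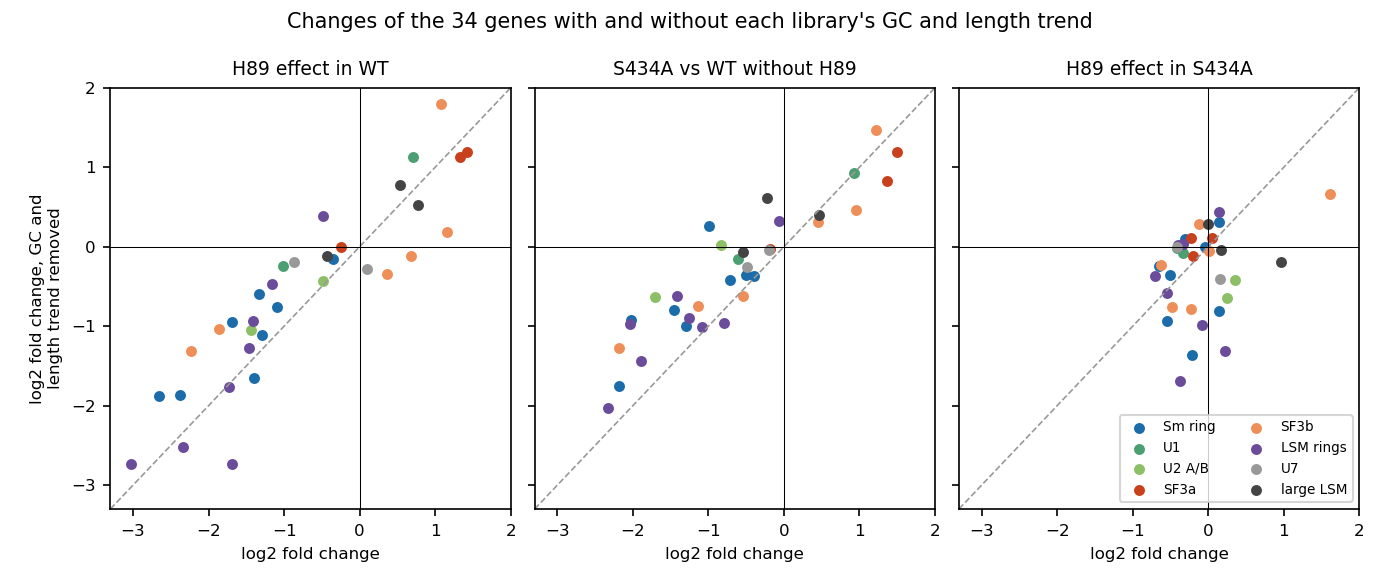
Log2 fold change of the 34 genes with each library's GC and length trend removed (vertical axis) against the value without removal (horizontal axis) in 3 comparisons; colours mark the role and the dashed line marks equal values. For H89 in WT and for S434A vs WT without H89, LSM3 stays at the lower left and SF3A1 at the upper right. For H89 in S434A, LSM5, SNRPF and LSM8 lie at -1.69, -1.36 and -1.31 with the trend removed. In that panel 16 genes pass as lower and 3 as higher with the trend removed.

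The other genes of the pathway were read from lists set by function, whose counts stand beside 38.8% of all genes tested that rose and 30.9% that fell with H89 in wild type, and beside 29.0% (higher) and 29.3% (lower) for S434A without H89. Of 20 other snRNP and tri-snRNP proteins, 10 fell and 7 rose with H89 in wild type, and 9 were lower and 7 higher in S434A without H89. With the GC and length trend removed, these were 7 higher and 11 lower with H89 and 5 higher and 11 lower in S434A. SNRNP25, a protein of the minor spliceosome, fell from 151, 156 and 152 CPM to 34.7, 32.97 and 33.5 CPM (log2 -2.18, SE 0.08, adjusted p = 5.16e-09). CD2BP2, a U5 assembly factor, changed by -1.51 (SE 0.06, adjusted p = 6.23e-09), and PPIH, a cyclophilin of the tri-snRNP, by -1.83 (SE 0.11, adjusted p = 9.68e-08). Of 11 tested U2 snRNP and branch site factors, 6 rose and 2 fell with H89 in wild type. PHF5A, the zinc-finger subunit of SF3b whose symbol the rule does not take in, fell from 282, 292 and 273 CPM to 47.4, 47.1 and 48.97 CPM (log2 -2.56, SE 0.11, adjusted p = 1.08e-08) and stood at 70.7, 67.3 and 92.96 CPM in S434A without H89 (log2 -1.88, SE 0.11, adjusted p = 4.60e-07). Its level was below that of wild type without H89 in all of these libraries. SF1, which reads the branch site before U2 does, rose by 1.40 (SE 0.17, adjusted p = 2.76e-05), and CHERP by 1.56 (SE 0.18, adjusted p = 1.72e-05). U2AF1 was listed at 0 counts in all 12 libraries. With no multimapping option set in the counting, reads that match more than 1 place may have gone uncounted. The value of 0 therefore does not show that U2AF1 was silent, and its cause was not tested.

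Of 17 genes of the SMN complex and methylosome, which load Sm rings onto RNA, 9 fell and 4 rose with H89 in wild type. SMN1 and SMN2 in that list are near-identical copies whose counts are uncertain. GEMIN6, an SMN-complex protein with an Sm-like fold, fell from 110.0, 107 and 107 CPM to 17.3, 18.6 and 20.2 CPM (log2 -2.53, SE 0.09, adjusted p = 5.31e-09), while GEMIN5, which recognises small nuclear RNAs, rose from 19.1, 19.8 and 18.9 CPM to 43.9, 43.4 and 41.3 CPM (log2 1.15, SE 0.07, adjusted p = 1.29e-07). COPRS, a cofactor of PRMT5, changed by -0.91 (SE 0.08, adjusted p = 2.76e-06). Of 8 decapping partners of the LSM1 ring, 7 rose and 0 fell in that comparison by edgeR (38.8% and 30.9% of all genes), and with the trend removed 5 rose and 1 fell. PATL1, which binds the ring, rose from 20.4, 18.2 and 20.8 CPM to 56.5, 58.9 and 57.2 CPM (log2 1.54, SE 0.09, adjusted p = 1.06e-07), and EDC4, a decapping scaffold, changed by 1.29 (SE 0.15, adjusted p = 1.47e-05). Of 20 PRP19 complex and catalytic step factors, 8 rose and 4 fell, with ISY1 at -1.17 (SE 0.10, adjusted p = 1.97e-06) and DHX38 at 1.12 (SE 0.13, adjusted p = 1.79e-05). Of 12 SR proteins, which promote exon inclusion, 5 rose and 2 fell, with TRA2B at -0.83 (SE 0.14, adjusted p = 0.00032). Of 8 U7 partners in histone mRNA processing, 4 rose and 1 fell, with SYMPK at 0.95 (SE 0.14, adjusted p = 0.000132). In S434A without H89, the same lists had 2 higher and 7 lower (SMN complex and methylosome), 5 higher and 1 lower (decapping), 6 and 8 (PRP19 complex and catalytic), 2 and 5 (SR proteins), 1 and 0 (U7 partners) and 3 and 1 (U2 and branch site factors), against 29.0% and 29.3% of all genes. The trend-removed fit turned some of these balances. For H89 in wild type it gave 5 higher and 6 lower (SMN complex and methylosome), 6 higher and 3 lower (U2 and branch site), 6 higher and 5 lower (PRP19 complex and catalytic), 4 higher and 3 lower (SR proteins) and 5 higher and 0 lower (U7 partners), against 38.3% and 34.8% of all genes. For S434A without H89 it gave 7 higher and 6 lower, 3 higher and 3 lower, 6 higher and 5 lower, 4 higher and 0 lower and 3 higher and 0 lower in the same order, with 4 higher and 1 lower for the decapping partners, against 29.6% and 28.7%. With H89 in both genotypes, 0 genes of these lists differed, by edgeR.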

How the data were processed

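RNA-seq counts of 12 HepG2 libraries (4 groups of 3, taken from the genotype and treatment labels) were used. Per the file headers, the deposited table holds raw counts: featureCounts 2.0.1 counted read pairs on the exons of each gene in an hg19 annotation, with no strand or multimapping option set. Bowtie 0.12.2 and hg19 are named in the submitters' processing notes. Nothing says whether replicates were separate cultures beyond the word biological, so p-values measure the spread between these libraries.

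Gene types, GC content and coding length came from GENCODE v29 (GRCh38) through the gene identifiers, with coding length from the principal transcript. Gene symbols came from a reference list of gene names, with the GENCODE name for identifiers not in it. In all, 58847 of 62475 identifiers had a symbol. Counts of all 12 libraries were fitted together by robust quasi-likelihood after TMM scaling and filterByExpr (minimum count 10), using edgeR 4.0.16 under R 4.3.3 with 8 residual degrees of freedom. Benjamini-Hochberg adjustment ran over the 14435 genes left. The standard error is the log2 fold change over the square root of F. "Rose", "fell", "higher" and "lower" in counts mean an adjusted p under 0.05, at a fold over 2 where stated. The trend fit used splines with 5 degrees of freedom on GC content and log exonic length with their product, with a GC value for 14279 of the 14435 genes.

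The alternatives tried were DESeq2 1.42.0, voom in limma 3.58.1 with or without group weights, scaling by RLE or the upper quartile, other filters, only the groups compared, a replicate block, trend removal and leaving out each library. Every member was named; of each pathway list up to 3 genes with the smallest p were eligible. The members and lists were chosen with earlier results of these data known. The fit was tested on simulated counts, with changes in WT with H89 alone. All groups had the same spread there, so the wide spread of S434A without H89 was not covered. No further columns of samples were present in the table.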

Additional observations from a re-analysis of the deposited data

Results flagged for a closer look

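For 30 of the 34 genes, the effect of H89 differed between S434A and wild-type cells by the interaction test of edgeR (quasi-likelihood, Benjamini-Hochberg adjusted p under 0.05), 23 of them positive and 7 negative, against 24.0% and 24.0% of all genes tested. The values are log2 differences, the effect in S434A less that in wild type, so a positive value means a less negative or more positive effect in S434A. In the Sm ring, the difference was 0.69 for SNRPB, 1.55 for SNRPD1, 1.38 for SNRPD2, 0.50 for SNRPD3, 2.33 for SNRPE, 1.08 for SNRPF, 2.12 for SNRPG and 0.58 for SNRPN. In the LSM rings, the difference was 1.30 for LSM1, 2.49 for LSM3, 0.75 for LSM4, 1.95 for LSM5, 1.65 for LSM6, 1.08 for LSM7 and 1.91 for LSM8. Among the U1-specific proteins, the difference was -1.12 for SNRPA and 0.68 for SNRPC. Among the U2-specific A and B proteins, the difference was 0.74 for SNRPA1 and 1.79 for SNRPB2. In SF3a, the difference was -1.63 for SF3A1, -1.55 for SF3A2 and 0.30 for SF3A3. In SF3b, the difference was -0.59 for SF3B2, -1.17 for SF3B3, -1.20 for SF3B4, 1.24 for SF3B5 and 2.24 for SF3B6. Among the U7 Sm-like proteins, the difference was 0.46 for LSM10. Among the large LSM proteins, the difference was 0.60 for LSM12 and -0.54 for LSM14B. With the GC and length trend of each library removed, 7 of these no longer passed: LSM10 (adjusted p = 0.129), LSM12 (adjusted p = 0.489), LSM5 (adjusted p = 0.0893), SF3A3 (adjusted p = 0.266), SF3B2 (adjusted p = 0.17), SNRPA1 (adjusted p = 0.501) and SNRPF (adjusted p = 0.671), and the sign turned in SNRPA1 and SNRPF. The S434A libraries without H89 enter every one of these values, and they had the widest spread of the 4 groups, a biological coefficient of variation of 0.351. The WT libraries without H89 enter every value too, and they stood apart in depth, ribosomal protein share and length trend. With H89, the 34 genes differed between genotypes by -0.21 to 0.23 only. The values here thus largely mirror S434A against wild type without H89 and are not separate evidence. LSM3 was 2.49 here and -2.33 there, and SF3A1 was -1.63 here and 1.4999 there.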

How the results depend on the processing

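The 115 results on the 34 genes were recomputed under 23 other settings. Counts of genes past a threshold that moved by over 1.5 times were these. Shares of all genes tested in the same fits stand in brackets. For S434A against wild type without H89, genes higher by over 2-fold were 5 with only the groups compared (17.3%) and 3 to 5 when 1 library was left out (9.8% to 14.2%). Genes lower by over 2-fold were 6 with the trend removed (6.11%) and 7 with the replicate block as well (6.11%). For H89 in S434A, genes higher by over 2-fold were 0 with RLE factors (12.7%), no filter (3.93%), the trend removed (2.65%, with the block 2.83%) or only the groups compared (4.24%). They were 0 to 2 with 1 library left out (7.81% to 20.9%). Genes lower by over 2-fold were 3 with the trend removed (3.70%) and 3 with the block too (3.59%). At any fold, higher genes were 1 with RLE factors (24.7%), no filter (8.04%) or only the groups compared (8.49%), and 1 to 9 with 1 library left out (14.8% to 33.9%). Lower genes were 6 with only the groups compared (11.4%) and 14 to 18 with 1 library left out (19.7% to 32%). In the main fit these all-gene shares at any fold were 29.3% higher and 22.7% lower, so the shares moved between settings too. For the difference of H89 effects, positive genes over 2-fold were 5 with the trend removed (6.96%) and 5 with the block (6.91%). Negative ones were 2 to 5 with 1 library left out (10.4% to 14.4%). The cause was not tested.

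Some signs turned. With only the groups compared, S434A against wild type without H89 gave LSM11 0.0136, LSM2 0.14 and SF3A3 0.0238. The H89 effect on LSM11 in wild type was -0.0521 with RLE, -0.0141 with upper-quartile factors, -0.0539 with DESeq2, -0.0587 with no filter, -0.0494 with only the groups compared and -0.0667 to 0.117 with 1 library left out. With the trend removed, without and then with the replicate block, the log2 values were LSM14A 0.61 and 0.59, LSM2 0.32 and 0.32, SNRPA1 0.0234 and 0.00223, SNRPF 0.26 and 0.17 for S434A against wild type without H89. They were LSM11 -0.28 and -0.28, LSM2 0.39 and 0.38, SF3B2 -0.34 and -0.35, SF3B3 -0.11 and -0.12 for H89 in wild type, LSM14A -0.19 and -0.16, LSM2 0.0168 and 0.0176, LSM7 0.0369 and 0.0419, SNRPD2 0.0907 and 0.095 for H89 in S434A, and SNRPA1 -0.21 and -0.19, SNRPF -0.26 and -0.16 for the difference of effects. SF3B1 in the difference of effects was -0.0615 without replicate 1 of S434A without H89, the lowest of its leave-one-out values, which reached 1.07.

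Whether replicate numbers pair the libraries could not be settled: of 18 same-numbered pairs, 4 had deviations correlated over 0.1 (range -0.15 to 0.47). Deviations within a group of 3 libraries depend on each other, so these correlations cannot exclude pairing. With the replicate block alone, 24 of the 34 genes fell and 8 rose with H89 in wild type, and 23 were lower and 7 higher in S434A without H89; of all genes 30.8% fell and 38.7% rose, and 29.7% were lower and 28.6% higher. The depth, at least 17562754 counts per library, left SNRPN with the fewest counts, 1731 over 12 libraries.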

Other observations

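With H89 in S434A cells, 14 of the 34 genes fell and 2 rose, and some pathway lists held more rises than falls. Of 12 SR proteins 7 rose and 0 fell by edgeR, of 20 PRP19 complex and catalytic step factors 8 rose and 2 fell, and of 8 decapping partners 5 rose and 0 fell. Of 20 other snRNP and tri-snRNP proteins 10 fell and 1 rose. All genes tested had 29.3% higher and 22.7% lower in this comparison. With the GC and length trend removed, the SR proteins went to 1 higher and 6 lower (median -0.40 in log2), the PRP19 complex and catalytic factors to 9 higher and 4 lower, the decapping partners to 2 higher and 1 lower and the other snRNP proteins to 1 higher and 8 lower, against 20.8% higher and 23.2% lower of all genes. Whether a list differs from another was not tested.

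Ratios of CPM between subunits of 1 complex, for pairs chosen after their values were seen, are given as ranges over the 3 libraries of a group. The ratio of SF3B1 to SF3B6 was 0.477 to 0.504 in wild type without H89, 4.83 to 5.44 in wild type with H89, 0.334 to 1.93 in S434A without H89 and 4.53 to 4.83 in S434A with H89. The ratio of SF3B3 to SF3B5 was 0.43 to 0.439 in wild type without H89, 2.31 to 2.83 in wild type with H89, 1.25 to 2.45 in S434A without H89 and 1.93 to 2.11 in S434A with H89. In the LSM rings, LSM3 to LSM2 was 5.24 to 5.36 in wild type without H89, 0.841 to 1.01 in wild type with H89, 0.774 to 1.54 in S434A without H89 and 0.895 to 1.15 in S434A with H89. In the Sm ring, SNRPG to SNRPD3 was 10.04 to 12 in wild type without H89, 2.19 to 2.31 in wild type with H89, 2.98 to 4.23 in S434A without H89 and 2.21 to 2.25 in S434A with H89. Each pair joins a gene that moved much with one that moved less or the other way, so the ratios describe the libraries and have no test.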
